A study of Homo sapiens with 8 samples.

Results

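STRA6, RBP5, RARB, THRB and KLF9 are 5 of the 187 genes in the deposited table of NCI-H295R cells, and all 5 had lower estimated counts when serum was withdrawn. NCI-H295R is an established line from a human adrenocortical carcinoma that makes adrenal steroids. The genes were picked by symbol, as those with a known place in retinoid or thyroid hormone signalling. The 4 control libraries came from cells in DMEM-F12 with L-glutamine and HEPES, the ITS supplement (insulin, transferrin and selenium), 5% NU-I serum and antibiotics. The 4 serum-deprived libraries came from the same medium without the serum and without ITS, so that loss of either cannot be told apart in any value below. The source label of the deprived samples writes ITC where the protocol writes ITS. How long serum was withheld is not stated in the labels, all libraries are of a single line, and nothing in the labels says that they came from separate cultures. Neither retinoids nor thyroid hormones were measured in these samples.

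Serum carries retinol, bound in blood to a dedicated carrier protein, and the thyroid hormones T4 and T3. Retinol enters cells through the membrane receptor STRA6, is held in the cytosol by small binding proteins such as RBP5, and can be oxidised to retinoic acid, which activates the nuclear receptors of the RAR family, RARB among them. T3 binds the nuclear receptors THRA and THRB. Both kinds of receptor act on DNA as partners of RXR, at repeats of a short half-site, and some of their target genes encode parts of the same pathways. RARB is a classical target of retinoic acid, STRA6 was first described in mouse cells as a gene stimulated by it, and KLF9, a zinc finger transcription factor, is induced by T3 and also by glucocorticoids.

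The spacing of the half-sites is part of what such receptors read, and the promoter of RARB is the best known case. RefSeq start sites (GRCh38.p14) gave 13 windows for the 5 genes, each from 250 bases before to 50 bases after a start, which were searched on both strands for 2 half-sites in the same orientation with a spacer of 0 to 6 bases. Half-sites were the consensus AGGTCA, the variant AGTTCA, the variant GGGTCA and the variant GGTTCA, and a repeat with a spacer of 5 bases is called DR5. The RARB window at chr3:25428013-25428262 (plus strand) is shown because it was the only member window with any such repeat. It lies in the RARB gene, between exons of the longer transcripts and directly before the first base of a shorter protein-coding transcript in GENCODE 29. The STRA6 window at chr15:74212268-74212509 (minus strand) is shown beside it because it held 3 half-sites but no repeat. Capitals mark half-sites on either strand, together with the DR5 and its spacer.
RARB: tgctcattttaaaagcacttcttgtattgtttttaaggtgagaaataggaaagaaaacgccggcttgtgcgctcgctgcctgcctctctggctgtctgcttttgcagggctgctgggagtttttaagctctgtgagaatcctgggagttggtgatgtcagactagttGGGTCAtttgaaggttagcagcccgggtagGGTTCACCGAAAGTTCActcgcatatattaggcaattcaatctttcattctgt
STRA6: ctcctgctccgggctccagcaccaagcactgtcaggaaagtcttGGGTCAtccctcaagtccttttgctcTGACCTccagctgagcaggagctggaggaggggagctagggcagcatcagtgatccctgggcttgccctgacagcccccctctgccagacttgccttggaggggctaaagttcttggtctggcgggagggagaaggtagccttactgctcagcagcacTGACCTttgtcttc
The DR5 of RARB, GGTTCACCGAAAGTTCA, ran from 53 to 37 bases before the start (chr3:25428210-25428226). A DR5 was present in 31 of 35116 promoter windows of all genes (0.0883%). The 4 spellings searched include both half-sites of the RARB DR5, and this promoter was already the best known case. Finding the repeat there was therefore no test. The half-sites of the RARB DR5 are counted again as half-sites, which 5 of the 13 member windows and 38.6% of all windows held at least once. DR4, the spacing best known for thyroid hormone receptors, was in 0.0854% of all windows and in 0 of the 13 member windows. A repeat this rare would be missing from almost any 13 windows, and bases further than 250 before a start were not searched. The single windows of RBP5 and KLF9 and both windows of THRB held no half-site of these 4 spellings. These matches describe the letters of the windows and say nothing of binding in these cells.

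All 5 genes were lower in serum-deprived cells, between 1.99-fold for THRB and 3.07-fold for RARB, and in each of them every deprived library lay below every control library. These are differences in the contrast on which the authors selected the table, and from which the genes were chosen, so they are descriptions and no test of the genes is given. Of the 187 tabulated genes, 75 (40.1%) were lower without overlap between the groups and 124 (66.3%) did not overlap in either direction. In an edgeR quasi-likelihood fit over the whole table, with Benjamini-Hochberg adjusted p under 0.05 as the call, all 5 were called lower, as were 90 of 187 genes (48.1%), while 69 (36.9%) were called higher. That split was 21 higher and 91 lower without scaling, 80 and 74 with median-of-ratios size factors, and 82 and 77 in DESeq2. The median log2 fold change was -1.25 over the 5 genes, -0.22 over all tabulated genes and -0.81 over the 94 that were lower. The value over all genes is itself the smallest fall in this fit, beside the gap left by the authors' limit, and describes no typical gene. Counts are estimated counts divided by a size factor for each library, called scaled counts below. In bulk RNA, fewer cells with a transcript and less of it per cell cannot be told apart.

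**Figure D1:**
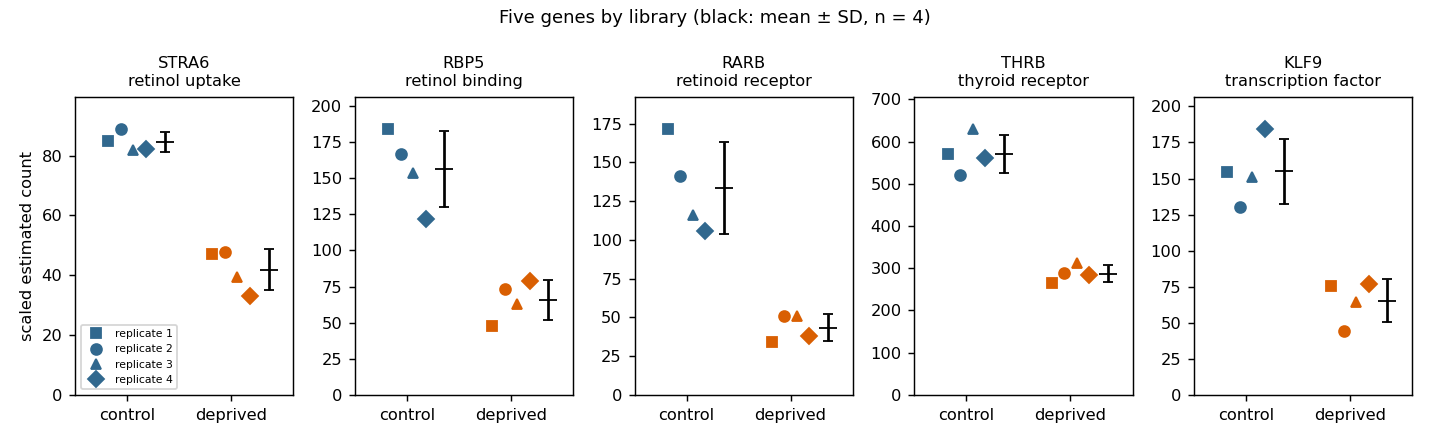
Scaled estimated counts of STRA6, RBP5, RARB, THRB and KLF9 in each library of control and serum-deprived NCI-H295R cells, each vertical axis starting at 0. Marker shapes give the replicate number, and black marks give the mean ± SD of 4 libraries. In every panel all deprived libraries lie below all control libraries.

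The libraries differed in other ways. Both libraries numbered 1 were unlike the rest of their group, with Spearman correlations across the 187 genes of 0.947 to 0.950 with the other controls and 0.919 to 0.927 with the other deprived libraries, against at least 0.977 and 0.969 among the others. Sums over the 187 genes were 262373 to 359195 estimated counts, a fraction of each library whose full depth is unknown. Of 11 markers of the adrenal cortex, HSD3B2, MRAP, INHA and DLK1 were in the table and all were lower, with log2 fold changes from -1.42 to -0.55. Their summed scaled count was 69141 to 78989 in controls and 46820 to 55038 after deprivation, most of it DLK1, and their part in the differences of the 5 genes was not tested. Other markers of the cortex, such as NR5A1 and STAR, and all markers listed for fibroblasts, endothelium and leukocytes were not analysed here.

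STRA6 takes up retinol from its carrier in blood and stands first in the pathway. It lies on chromosome 15 from 74179466 to 74212267 (GRCh38, minus strand). Its scaled counts in control replicates 1 to 4 were 84.9, 89.0, 81.9 and 82.3, and in deprived replicates 1 to 4 they were 47.2, 47.9, 39.3 and 33.2. The controls were nearly alike, and the highest deprived library stood well below the lowest control. The mean went from 84.5 ± 3.25 to 41.9 ± 6.98 (SD, n = 4 each), a log2 fold change in edgeR of -1.01 ± 0.18 (SE). The authors' deposited table gives -1.02 with an FDR of 0.000129, the largest FDR of the 5. STRA6 also had the lowest estimated counts of the 5, from 28.1 to 108 per library. Its controls varied by 3.85% (SD over mean), less than the 10.48% that counting reads alone would give at this level. Its estimated counts were not whole within 0.01 in 7 of 8 libraries, and 540 bases of its exons lie opposite exons of CCDC33 in GENCODE 29. The libraries were stranded, but the sources used here do not say whether the authors' counting used strand, so reads of the overlapping pair may not be fully separated.

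RBP5, a cytosolic retinol-binding protein, had the widest spread between replicate pairs. It lies on chromosome 12 from 7123684 to 7128942 (minus strand). The control libraries held 184, 167, 154 and 122 scaled counts in the order of their replicate numbers, and the deprived libraries 47.7, 73.6, 63.2 and 79.0. Deprived replicate 1 was the lowest of all 8 and control replicate 1 the highest. The means were 157 ± 26.3 and 65.9 ± 13.7 (SD, n = 4), a 2.38-fold difference and a log2 fold change of -1.25 ± 0.20 (SE, edgeR). The deposited table of the authors gives a smaller log2 fold change, -1.002 (FDR 6.14e-05), close to the -1.05 found when replicate 1 of both groups was left out. The estimated counts of RBP5 were not whole within 0.01 in 6 of 8 libraries, as happens where kallisto divides reads between different genes. Counts that were not whole were usual in the table, since 69 of the 187 genes were whole in all 8 libraries, 3 of the 5 genes among them. Which other genes these were, and how many reads were divided, is not known.

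RARB, a receptor for retinoic acid and itself a target of it, showed the largest difference of the 5 over all 8 libraries. It lies on chromosome 3 from 25174332 to 25597932 (plus strand). Scaled counts of RARB were 172, 141, 116 and 106 in control replicates 1 to 4 and 34.2, 50.7, 51.1 and 37.8 in deprived replicates 1 to 4. The lowest control was 2.06 times the highest deprived library, the widest gap between the groups among the 5 genes. The mean went from 134 ± 29.5 to 43.5 ± 8.75 (SD, n = 4), so deprived cells held 32.6% of the control level, and the log2 fold change was -1.61 ± 0.22 (SE, edgeR). It was the 4th largest fall of the 187 genes. In the authors' deposited table RARB stands at -1.32 (FDR 1.01e-06) and ranks 9th among the falls. Leaving out replicate 1 of both groups gave -1.37 ± 0.18 (SE), since control replicate 1 was the highest control and deprived replicate 1 the lowest deprived library. KLF9 was then at -1.33 ± 0.20 (SE), so the 2 genes were not told apart without that pair. The ratio of RARB to KLF9 within a library overlapped between the groups and was lower after deprivation in 2 of the 4 pairs. The counts of RARB were whole within 0.01 in every library, and 28 bases of its exons lie opposite exons of TOP2B.

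THRB, the beta receptor for T3, had the highest counts of the 5 and the least spread between replicate pairs. It lies on chromosome 3 from 24117153 to 24495756 (minus strand). Control replicates 1 to 4 held 570, 522, 631 and 561 scaled counts of THRB, and deprived replicates 1 to 4 held 265, 288, 312 and 285. The groups were far apart for their spread, with coefficients of variation of 7.90% in controls and 6.71% after deprivation. Counting alone would give 4.03% and 6.07%. The means of 571 ± 45.1 and 288 ± 19.3 (SD, n = 4) gave a log2 fold change of -0.99 ± 0.12 (SE, edgeR), the smallest of the 5. The authors' deposited table gives -0.91 with an FDR of 5.78e-11, the lowest FDR of the 5. Counts were whole within 0.01, and 42 bases of THRB exons lie opposite exons of its antisense gene THRB-AS1. With median-of-ratios size factors the log2 fold change of THRB was -0.84.

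KLF9, the transcription factor induced by T3 and by glucocorticoids, is the only member of the set that is neither a receptor nor a retinol protein. It lies on chromosome 9 from 70384597 to 70414624 (minus strand) and has a single protein-coding transcript in GENCODE 29. Its scaled counts were 155, 130, 151 and 185 in control replicates 1 to 4, and 75.4, 44.7, 64.1 and 76.8 in deprived replicates 1 to 4. Replicate 2 was the lowest and replicate 4 the highest in both groups. The mean went from 155 ± 22.4 to 65.3 ± 14.9 (SD, n = 4), a 2.38-fold difference and a log2 fold change of -1.25 ± 0.20 (SE, edgeR). The authors' deposited table gives -1.29 (FDR 8.72e-05), the 10th largest fall there and next after RARB. The estimated counts were whole in all 8 libraries.

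**Figure D2:**
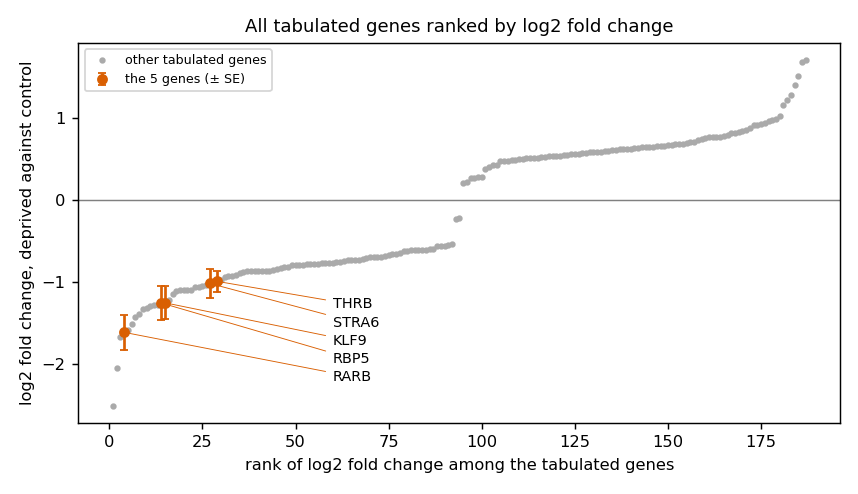
Log2 fold change (edgeR) of each of the 187 tabulated genes, serum-deprived against control, against its rank, with the 5 genes in orange ± SE. They stand at ranks 4, 14, 15, 27 and 29 from the largest fall, and the empty interval near 0 is left by the authors' selection.

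All 5 genes lie inside the limits of the deposited table, as every gene selected for it does. Its smallest fall is a log2 fold change of -0.58 and its largest FDR is 0.0993 in the authors' deposited table, while the 5 genes run from -0.91 for THRB to -1.32 for RARB. Their mean estimated counts over 8 libraries were between 65.3 for STRA6 and 443 for THRB, against a limit of 30 in the table's name.

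Taken by replicate number, every pair of libraries had less of each of the 5 transcripts after deprivation, which held for 83 of the 187 genes (44.4%). THRB was the steadiest, with log2 ratios from -1.10 to -0.86 and an SD of 0.10 over the 4 pairs. It also had the most counts, so that counting reads alone would give it the least spread. That is 4.03% in controls and 6.07% after deprivation, against 7.68 to 10.48% and 12.7 to 15.9% for the others. Whether THRB was steadier beyond counting was not tested. STRA6 ran from -1.30 to -0.84 and KLF9 from -1.53 to -1.03, both with an SD of 0.21. RARB ran from -2.31 to -1.17 (SD 0.49) and RBP5 from -1.94 to -0.62 (SD 0.54). The replicate 1 pair gave the lowest ratio of RARB, RBP5 and THRB. In it, deprived cells held 19.9% of the control level of RARB and 25.9% of that of RBP5. The other 3 pairs held 35.8 to 44.1% for RARB and 41.1 to 64.8% for RBP5. STRA6 and KLF9 had their smallest difference in that same pair, at 55.6% and 48.8%. The fold changes of the authors' deposited table differed from the log2 ratios of replicates 2 to 4 by a constant offset with an SD of 0.00799 over the 187 genes, so they do not draw on the replicate 1 pair, which with 1 library per group has no replicate check. In that pair the 94 genes with a fall in the authors' deposited table had a median log2 ratio of -0.72, and the 5 genes one of -1.10.

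**Figure D3:**
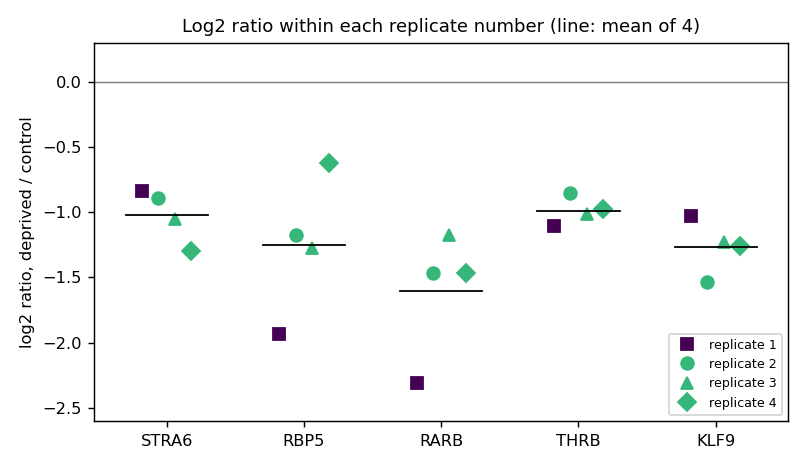
Log2 ratio of scaled counts, deprived over control, for each replicate number and gene, with a line at the mean of 4 pairs and the replicate 1 pair in purple. All 20 ratios lie below 0, and the replicate 1 pair is the lowest for RARB, RBP5 and THRB.

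Ratios of 2 genes within the same library do not depend on the size factors. Per 100 estimated counts of THRB, RARB had 30.1, 27.0, 18.4 and 18.8 in control replicates 1 to 4 and 12.9, 17.6, 16.4 and 13.3 in deprived replicates 1 to 4. The ratio was lower after deprivation in all 4 pairs and its groups did not overlap, although control replicates 3 and 4 stood only just above deprived replicate 2. It went from 23.6 ± 5.90 to 15.0 ± 2.32 (SD, n = 4), a log2 difference of -0.63. This was 1 of the 10 ratios among the 5 genes without overlap (10%), against 10.2% of the 4371 ratios between genes that were both lower and 42.9% of all 17391 ratios, so its separation is not unusual for genes of this table. STRA6 had 14.9 ± 1.67 counts per 100 of THRB in controls and 14.7 ± 2.99 after deprivation, a log2 difference of -0.04 within the spread of either group. KLF9 had 27.2 ± 4.02 and 22.9 ± 5.99, and RBP5 27.6 ± 5.35 and 22.9 ± 4.52, and both overlapped between the groups.

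**Figure D4:**
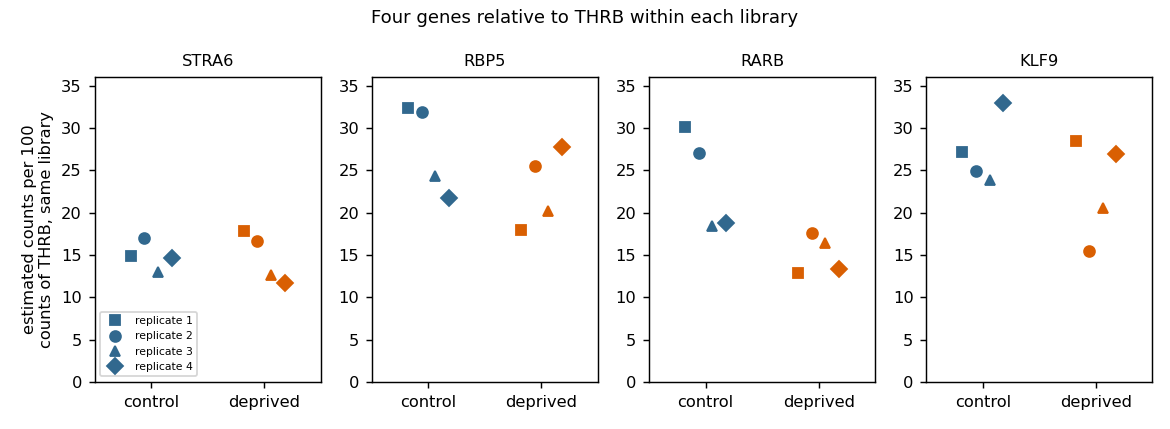
Estimated counts of STRA6, RBP5, RARB and KLF9 per 100 estimated counts of THRB in the same library, by group, with marker shapes for the replicate number. RARB is at 18.4 to 30.1 in controls and 12.9 to 17.6 after deprivation, while the other 3 genes overlap between the groups.

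Levels of different genes can be set beside each other only per length, and the transcript that each gene used is not known. Per kilobase of the longest and of the shortest basic protein-coding transcript in GENCODE 29, controls held 77.2 to 332 scaled counts of THRB, 155 to 278 of RBP5, 43.3 to 51.6 of RARB, 29.5 to 44.7 of STRA6 and 29.97 of KLF9. THRB and RBP5 were thus the more abundant transcripts of the 5 in controls under any choice of transcript, and their own order cannot be told. After deprivation the ranges were 38.9 to 167 for THRB, 65.1 to 117 for RBP5, 14.1 to 16.8 for RARB, 14.6 to 22.2 for STRA6 and 12.6 for KLF9. Among RARB, STRA6 and KLF9 the order is not settled, since the values of their libraries overlapped in both groups under some choice of transcript.

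RARB and THRB are neighbours on the short arm of chromosome 3. The ends of the 2 genes are 679 kb apart, each was the nearest tabulated gene to the other, and the 6 annotated genes that lie wholly between them include 0 protein-coding genes and 0 tabulated ones. The table has 16 genes on that chromosome. The other members had neighbours that differed in direction or did not pass. TRPM3, a cation channel gene 114 kb from KLF9, went from 899.6 ± 76.0 to 1250.4 ± 167 scaled counts, a difference of 0.48 ± 0.14 (SE) as a log2 fold change. CELF6, an RNA-binding protein gene 1.86 Mb from STRA6, went from 18.1 ± 13.1 to 58.7 ± 11.5 (log2 fold change 1.68 ± 0.48, SE). Both were called higher in edgeR over 187 genes. PRH1, the nearest to RBP5 at 3.70 Mb, had 51.1 ± 19.0 and 61.1 ± 8.26 and was not called.

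No other gene of the retinoid and thyroid hormone lists was found in the table under its listed symbol. Symbols were matched exactly, so a gene tabulated under another name would be missed. The lists for retinoid uptake and binding, metabolism, receptors and targets and for thyroid hormone transport, receptors and targets hold 78 symbols, and 5 of them are tabulated, all of them genes already described. That is 2 of 10 for retinoid uptake and binding (STRA6 and RBP5), 1 of 12 for retinoid receptors and cofactors (RARB), 2 of 19 for retinoic acid targets (RARB and STRA6), 1 of 2 for thyroid hormone receptors (THRB) and 2 of 15 for thyroid hormone targets (KLF9 and THRB). Of 13 glucocorticoid targets KLF9 alone was tabulated. None of the 20 genes of retinoid metabolism, of the 11 of thyroid hormone transport and metabolism or of the 12 listed KLF relatives was in it. Those genes were not analysed here, and their absence from a table of selected genes says nothing about how they moved.

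The tabulated genes with the pattern most like each of the 5 were ranked by Pearson's r of log2 scaled counts over the 8 libraries. Such an r mostly reflects the difference between the groups that all of these genes share, and it is given as a description. RARB was most like FITM1 (0.982), which takes part in lipid droplet formation, LAMB3 (0.972), a laminin chain, and IL7R (0.966), the interleukin 7 receptor. RBP5 was most like IL7R (0.965), RARB (0.958) and CFI (0.956), a complement protease. RBP5 was not among the 3 genes most like RARB, and the r of RARB and RBP5 was 0.930 without replicate 1 of both groups. STRA6 was most like IGFBP7 (0.979), LY6E (0.978) and the netrin receptor UNC5B (0.978). THRB was most like CCDC3 (0.988), FITM1 (0.987) and the ficolin FCN1 (0.978). KLF9 was most like ABCG1 (0.982), a cholesterol exporter, METTL7B (0.963) and TNFRSF12A (0.951), a receptor of the TNF family. Without replicate 1 of both groups, 2 of the 3 genes named for THRB stayed among its top 3, 1 of 3 for RBP5 and KLF9, and 0 of 3 for RARB and STRA6, so the order among close patterns rests on few libraries. Between these genes sizes differed widely, from a log2 fold change of -2.501 ± 0.22 (SE) for IL7R to -0.64 ± 0.11 for LY6E.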

How the data were processed

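Stranded libraries of polyadenylated RNA were read from a single end over 76 bases, per the labels' protocols. Deposited by the authors was 1 table of 187 selected genes with estimated counts for 8 libraries, their log2 fold change and their FDR (an adjusted p-value), per the file headers. The submitters' processing notes name cutadapt, FastQC, kallisto and edgeR, and GRCh38 as the build, per the labels without versions. Columns were matched to samples by group and replicate number, and there were 0 columns of other samples.

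The genes and lists were chosen with earlier results of these data known. The genes named are the 5, every tabulated gene on a list, the 3 genes most like each, and each one's nearest tabulated neighbour. Within groups, size factors were medians of ratios to the geometric mean (pseudocount 0.5). Between groups, the widest empty interval of log2 ratios with at least 20 genes on each side (-0.43 to 0.00) was centred on 0, a shift of -0.21, and size factors were 0.846 to 1.21. Counts were rounded and fitted by quasi-likelihood (glmQLFit, glmQLFTest; edgeR 4.0.16 under R 4.3.3) over 187 genes and 8 libraries without covariate. The code of the fit was tested on simulated data. These had known size factors, the same dispersion for every gene, unchanged genes and no pairing, unlike the selected table, so that test does not cover these libraries. SEs came from the quasi-likelihood F, and they and the SDs describe spread between libraries, which may be technical. Alternatives were TMM, median-of-ratios, column totals, no scaling, the authors' shift, DESeq2 1.42.0, limma-voom 3.58.1, a replicate block, omitted libraries and a minimum mean of 100.

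Same-numbered libraries deviated together (r across genes 0.216, 0.377, 0.111 and 0.122 in replicate order), which was taken to pair them. The main fit and its SEs did not use this pairing, which entered only through the replicate block. No libraries of a group were duplicates (chi-square per degree of freedom 4.27 to 63.7). All 187 identifiers matched GENCODE 29 (GRCh38), and promoters came from RefSeq. Python 3.11.15 was used for the remaining steps.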

Additional observations from a re-analysis of the deposited data

How the results depend on the processing

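All 5 genes stayed lower under every alternative run, and none of the alternatives reversed one. Each was called lower in edgeR under each scaling, omission and filter in which it was tested and with the block, and in DESeq2 and limma-voom, each run once on all 8 libraries. Their groups stayed without overlap under every scaling and omission. Over all 187 tabulated genes, 97 (no scaling) to 181 (replicate 1 of both groups left out) did not overlap in either direction. Called lower were 74 (median-of-ratios size factors) to 94 (replicate 1 of both groups left out) of the 187. The authors' deposited table has 94 genes with a fall, so such calls are common in a table selected on this contrast. The minimum mean of 100 removed RARB and STRA6. Log2 fold changes over the alternatives ran from -1.79 to -1.37 for RARB, -1.21 to -0.86 for STRA6, -1.45 to -1.05 for RBP5, -1.18 to -0.84 for THRB and -1.45 to -1.09 for KLF9. The lowest was without scaling in each case, which moved all genes by a median of -0.20, while median-of-ratios size factors moved them by 0.15. THRB moved by more than its SD over pairs, to -1.18 without scaling, -0.84 with median-of-ratios size factors and -0.84 in DESeq2. Leaving out 1 library gave -1.71 to -1.47 for RARB, -1.08 to -0.92 for STRA6, -1.35 to -1.13 for RBP5, -1.03 to -0.94 for THRB and -1.34 to -1.10 for KLF9. With the replicate block the log2 fold changes were -1.60, -1.02, -1.25, -0.99 and -1.26 in the same order, and the block changed no call of the 5 genes. Their SEs were 0.21, 0.16, 0.22, 0.099 and 0.14 with the block, against 0.22, 0.18, 0.20, 0.12 and 0.20 in the main fit. The count of tabulated genes called higher dropped from 69 to 21 without scaling. With a minimum mean of 100, where 107 genes were tested, 36 were higher and 55 lower. The other pseudocount, listed for normalised values or very low counts, was not run because the table holds neither for these genes. A table of selected genes gives neither depth nor unchanged genes, so the scale between groups is an estimate, and a common error of scale would move all 5 together.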
